A study of Homo sapiens with 12 samples.

Results

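The genes described here encode fibronectin, collagens, laminins and the glycoproteins and proteoglycans assembled with them in the extracellular matrix. They were chosen by symbol from a list of 44 genes, with earlier results of these data known. The count table held 43 of the 44 among its 17085 genes, and DCN was not analysed here. Of these 43 genes, 39 passed the filter on low counts and were tested among 12841 genes in all. The 4 that did not pass were COL1A2, with 0 to 3 counts per library, COL3A1, with 1 to 7, NID1, with 0 to 4, and THBS2, with 0 to 2.

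The RNA came from 786-O, a human clear cell renal carcinoma cell line that lacks functional VHL, with the genotype given as WT in every group. Cells were exposed for 24 h to the vehicle dimethylsulfoxide (DMSO), to everolimus, an inhibitor of mTOR complex 1, to SGI-1027 at 1.5 µM, an inhibitor of DNA methyltransferases, or to both drugs (combination), giving 4 groups with 3 libraries apiece. The combination held 5 µM everolimus and 1.5 µM SGI-1027. For everolimus alone the sample records and the paper's methods give 5 µM, while the treatment protocol gives 10 µM. Whether its dose matched that of the combination is therefore not settled by the labels. The labels do not tell whether replicate libraries were grown as separate cultures, so p-values measure the spread between these libraries, which may be technical. The cells are a single tumour line without stroma, and no protein was measured in these files.

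The extracellular matrix is built in layers. Laminins and type IV collagen self-assemble into the sheets of the basement membrane, which nidogens and the heparan sulphate proteoglycans perlecan and agrin tie together. Fibronectin, fibrillar collagens, the beaded filaments of type VI collagen and fibrillin microfibrils form the interstitial matrix, in which latent TGF-beta is stored by LTBP proteins, and matricellular proteins such as thrombospondins, SPARC and tenascin-C act on cell adhesion without a main structural role. Renal carcinoma cells of clear cell type are known for mesenchymal features, and VHL itself takes part in fibronectin matrix assembly.

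Libraries held 37046231 to 41516976 counts, with scaling factors between 0.989 and 1.012. Replicates of every group differed by more than sampling noise, with a chi-square of 3 to 16 per gene for a pair of libraries, so none was counted as a repeat of another. The 2 libraries farthest from their own group were SGI-1027 replicate 3, with a chi-square per gene of 15.7 and 16.0 against the other SGI-1027 libraries, and DMSO replicate 1, with 10.1 and 12.8. Markers of the line were present in all libraries, with PAX8, a renal lineage factor, at 77.6 to 119 FPKM and VIM, a mesenchymal filament protein, at 2659 to 3466 FPKM. FPKM divides counts by gene length and library size, so that levels of different genes can be compared. Summed over 5 markers each, endothelial genes reached 0.128 to 0.241 FPKM and leukocyte genes 0.0766 to 0.364 FPKM. The 5 fibroblast or pericyte markers summed to 23.2 to 26.9 FPKM in DMSO, 21.4 to 22.3 with everolimus, 19.9 to 21.7 with SGI-1027 and 7.15 to 9.45 with the combination. ACTA2 made up nearly all of that sum, at a mean of 25 FPKM in DMSO and 7.36 with the combination. PDGFRA and FAP stayed under 0.05 FPKM in every library, PDGFRB lay at 0.0139 to 0.218 FPKM and RGS5 at 0.339 to 0.720 FPKM. The lower sum of these markers moved with the combination, and its part in the matrix results was not tested.

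Levels in DMSO spanned several orders of magnitude. FN1, which encodes fibronectin, stood first at 2928 ± 86.2 FPKM (SD, n = 3 here and below), and TGFBI, an adhesion protein bound to collagen, stood second at 1506 ± 21.4 FPKM. THBS1 (thrombospondin-1) followed at 399 ± 13.3 FPKM, SPARC, a collagen-binding glycoprotein, at 292 ± 13.5 FPKM, and COL6A3, the large chain of type VI collagen, at 169 ± 5.92 FPKM. COL6A3 and AGRN, at 165 ± 6.51 FPKM, did not differ beyond their spread, nor did VCAN at 76.8 ± 4.03, HSPG2 at 76.3 ± 3.60 and COL7A1 at 75.3 ± 4.08 FPKM. The collagens of basement membranes and filaments were present, with COL4A2 at 65.0 ± 1.65 FPKM and COL4A1 at 23.1 ± 0.782 FPKM. Fibrillar collagens were scarce by the same measure. COL1A1 lay at 0.911 ± 0.0724 FPKM, COL5A2 at 0.222 ± 0.0292 FPKM, COL3A1 at 0.0202 ± 0.00159 FPKM and COL1A2 at 0.00511 ± 0.00885 FPKM. Small leucine-rich proteoglycans were low as well, at 1.82 ± 0.0788 FPKM for BGN and 0.148 ± 0.0382 FPKM for LUM.

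**Figure D1:**
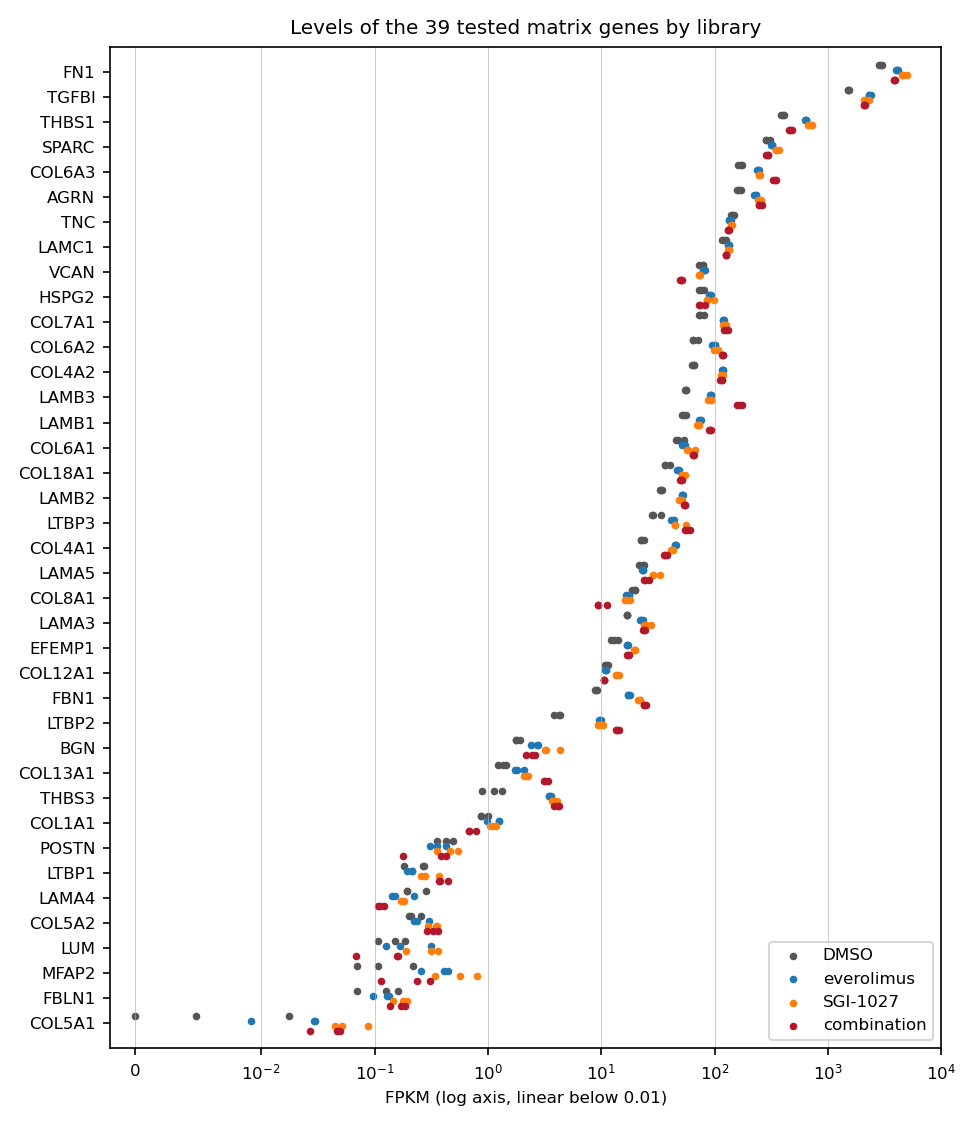
FPKM of each of the 39 tested genes (log axis, linear below 0.01) in all 12 libraries, coloured by group and sorted by level in DMSO. FN1 and TGFBI are the highest of the set in every library, and the fibrillar collagens and LUM lie near or below 1 FPKM.

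FN1 took a larger share of the library in each treated group than in DMSO. The share of all counts assigned to FN1 was 2.46, 2.61 and 2.56% in the DMSO libraries, 3.57, 3.46 and 3.54% with everolimus, 3.94, 3.99 and 4.32% with SGI-1027 and 3.42, 3.33 and 3.35% with the combination. No treated library overlapped the DMSO range, the SGI-1027 libraries were the highest, and the combination libraries lay below both single-drug groups. Group means were 2.55 ± 0.075, 3.52 ± 0.060, 4.08 ± 0.208 and 3.36 ± 0.049%, and FN1 ranked 1 among all genes by counts in every library. Without SGI-1027 replicate 3, the library with the highest share, the SGI-1027 mean was 3.96%. All 43 genes together took 4.46 ± 0.075% of counts in DMSO, 6.16 ± 0.076% with everolimus, 6.77 ± 0.251% with SGI-1027 and 5.97 ± 0.058% with both drugs. Without FN1 the remaining 42 took 1.91 ± 0.012, 2.64 ± 0.017, 2.69 ± 0.043 and 2.60 ± 0.033%.

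**Figure D2:**
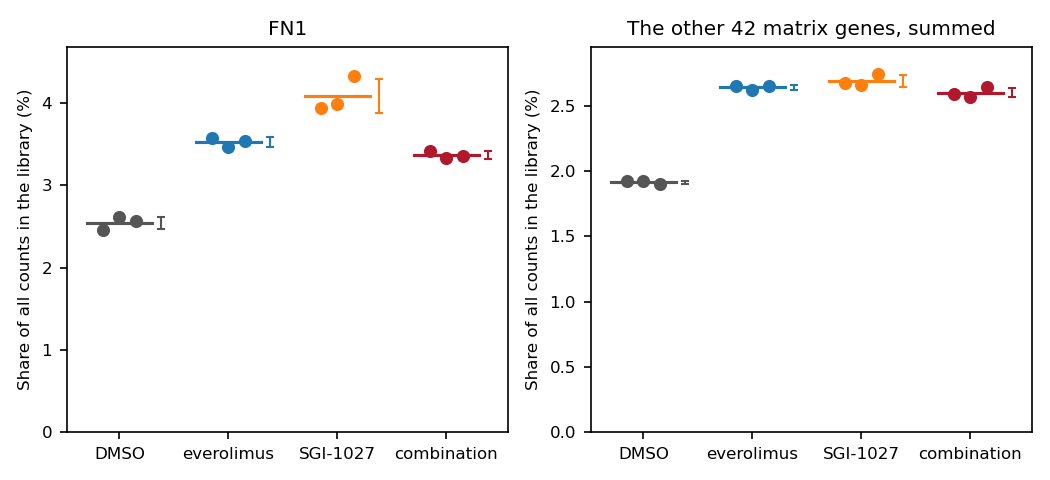
Percent of all counts in a library taken by FN1 (left) and by the other 42 matrix genes summed (right); points are libraries, lines are group means and bars are 1 SD either side. DMSO libraries lie below all treated libraries in both panels, and SGI-1027 libraries are highest for FN1.

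In CPM, the counts scaled to library size with TMM factors (normalized CPM), FN1 stood at 24498, 26347 and 25839 in DMSO, 35931, 34334 and 35528 with everolimus, 39324, 40103 and 43682 with SGI-1027, and 33900.1, 32891 and 33175 with the combination. Each treated group lay above DMSO with no overlap. The log2 fold change against DMSO was 0.46 (SE 0.04) with everolimus (adjusted p = 1.03e-08, edgeR), 0.68 (SE 0.04) with SGI-1027 (adjusted p = 3.71e-11) and 0.38 (SE 0.04) with both drugs (adjusted p = 5.85e-08). SGI-1027 libraries exceeded everolimus libraries by 0.22 (SE 0.04, adjusted p = 0.000332), or by 0.17 without SGI-1027 replicate 3. The combination fell by 0.30 against SGI-1027 (adjusted p = 1.29e-05), while its difference from everolimus, -0.08 (SE 0.04), did not pass the threshold (adjusted p = 0.0948). Leaving FN1 out of library totals and scaling factors, since so abundant a gene can shift them, gave 0.46, 0.67 and 0.37 for the 3 treated groups, and without DMSO replicate 1 they were 0.43, 0.65 and 0.36. In bulk RNA, a change in the RNA per cell and a change in which cells were collected cannot be told apart.

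The promoter of FN1 is shown because the gene is the most abundant RNA of the set. The RefSeq window covers 250 bases before and 50 after the annotated start on the minus strand of chromosome 2, chr2:215436019-215436318 (GRCh38.p14), and capitals mark TGACGTCA (the cAMP response element), CCAAT and GGGCGG.
FN1: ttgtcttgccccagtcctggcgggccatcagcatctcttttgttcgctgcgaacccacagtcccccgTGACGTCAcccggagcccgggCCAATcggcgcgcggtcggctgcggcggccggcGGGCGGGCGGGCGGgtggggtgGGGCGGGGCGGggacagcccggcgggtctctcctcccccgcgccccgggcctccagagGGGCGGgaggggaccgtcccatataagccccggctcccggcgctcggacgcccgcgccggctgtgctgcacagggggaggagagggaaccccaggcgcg
With the start as 0, TGACGTCA began at position -183 and CCAAT at position -162, and GGGCGG occurred at 6 positions. Windows were at hand for 34 of the 44 genes, 43 windows in all. TGACGTCA, read on either strand, was in 1.85% of all 35116 windows of the same length and, among the matrix genes, in those of FN1 and LTBP1. CCAAT was in 34.6% of all windows and in 18.6% of the matrix windows, GGGCGG in 45% and 74.4%, TATAAA in 11.5% and 14%, and CAGAC in 45.3% and 48.8%. A match is a description of the letters and not a measured binding site.

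Most of the tested genes rose with each single drug. Against DMSO, everolimus raised 26 of 39 and lowered 2, where, at an adjusted p under 0.05, 27.2% of all tested genes were called higher and 29.2% lower. SGI-1027 raised 32 and lowered 1, beside 32.0 and 30.6% of all genes. With the combination 25 rose and 5 fell, beside 32.8 and 33.4%. The median log2 fold change of the 39 was 0.46 for everolimus, 0.58 for SGI-1027 and 0.46 for both drugs, and over all 12841 tested genes it was 0.00, 0.02 and 0.01. The changes were of moderate size. With the cut-off stated for the study, a change of at least 1 on the log2 scale in either direction together with an unadjusted p under 0.05, 4 rose and 0 fell with everolimus (3.89 and 0.903% of all genes), 5 rose and 0 fell with SGI-1027 (6.25 and 1.07%), and 6 rose and 1 fell with the combination (7.25 and 2.71%).

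**Figure D3:**
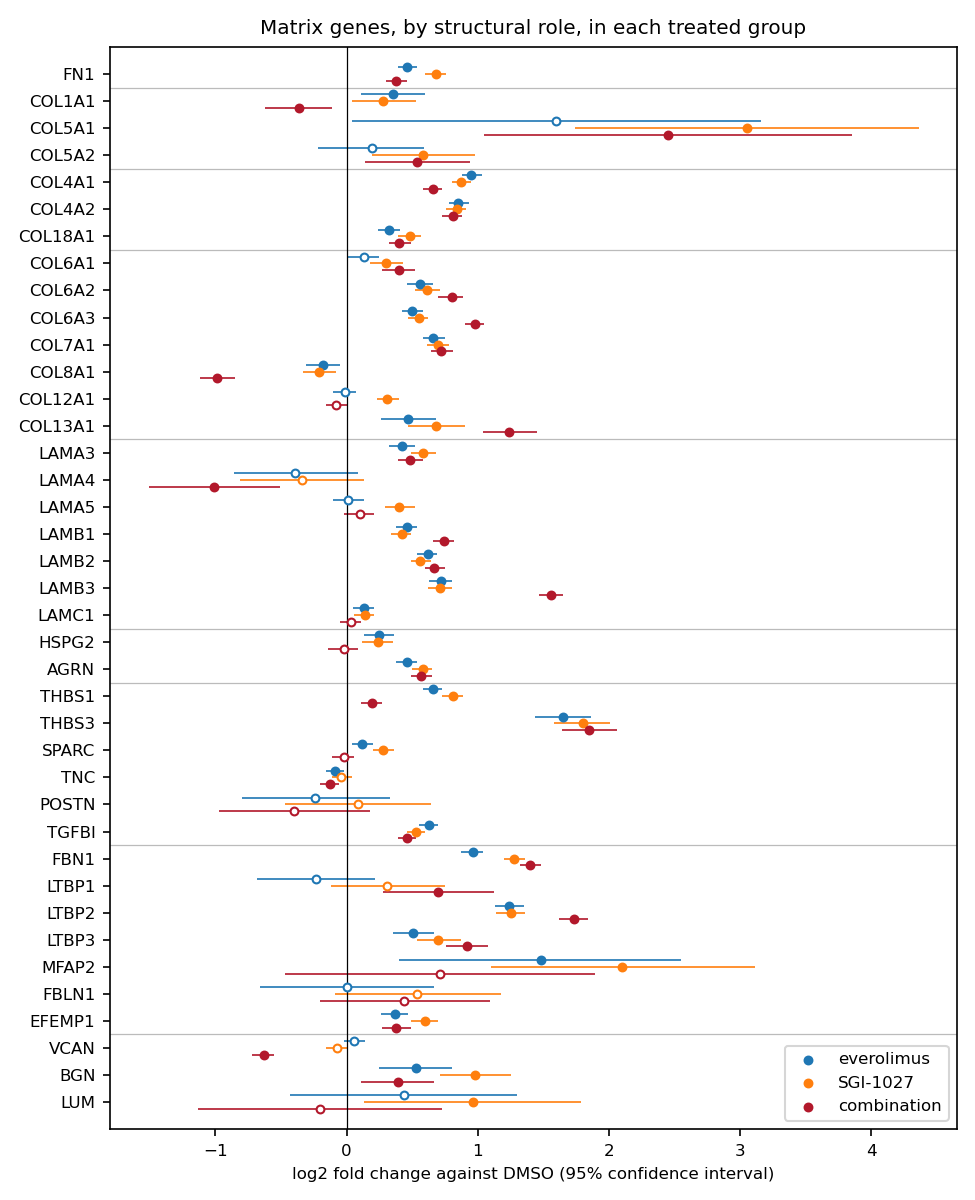
Log2 fold change against DMSO with its 95% confidence interval for the 39 tested genes, grouped by structural role, for each treated group; filled points passed an adjusted p of 0.05 and open points did not. Most points lie to the right of 0, and of those to the left with the combination, COL8A1, LAMA4 and VCAN lie farthest from 0.

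Where 3 log2 fold changes of a gene are given together, they are against DMSO for everolimus, SGI-1027 and the combination in that order. Among the fibrillar collagens, which form the striated fibres of connective tissue, only low levels were measured. COL1A1, the alpha-1 chain of type I collagen, stood in normalized CPM at 5.85, 5.2 and 5.18 in DMSO, 7.48, 7.35 and 5.88 with everolimus, 6.91, 6.23 and 6.62 with SGI-1027, and 4.01, 3.99 and 4.63 with the combination. It rose by 0.35 on the log2 scale with everolimus (adjusted p = 0.0147) and 0.28 with SGI-1027 (adjusted p = 0.0405), and it fell by 0.36 with the combination (adjusted p = 0.0138). The combination libraries lay below all others, at -0.71 against everolimus and -0.65 against SGI-1027. Each of the 3 calls against DMSO was lost in some fits that left out 1 library: with everolimus without DMSO replicate 2 (0.32) or everolimus replicate 1 (0.29) or 2 (0.30), with SGI-1027 without DMSO replicate 2 or 3 (0.26 in both) or SGI-1027 replicate 1 (0.25) or 3 (0.28), and with the combination without DMSO replicate 1 (-0.30) or combination replicate 1 or 2 (-0.32 in both). COL1A2, which pairs with COL1A1 in type I collagen, was listed at 0 to 3 counts.

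The type V chains, which nucleate collagen fibrils, were also low. COL5A1 had 7, 0 and 2 counts in DMSO, 12, 4 and 12 with everolimus, 22, 18 and 37 with SGI-1027, and 11, 21 and 19 with the combination. It rose by 3.05 (SE 0.62) with SGI-1027 and 2.45 (SE 0.67) with both drugs, values that depend on few counts in DMSO, and without DMSO replicate 1 the combination value was 3.96. With everolimus its libraries overlapped DMSO, at 1.60 (95% CI 0.04 to 3.16). A gene so low in DMSO passed the filter through its treated libraries, where it had to be higher. With at least 10 counts asked of every library, which leaves out COL5A1, MFAP2 and LUM, the matrix genes called higher with SGI-1027 were 29 in place of 32 and those below 0 in the interaction 26 in place of 29. COL5A2 rose by 0.58 (SE 0.19) with SGI-1027 and 0.54 (SE 0.19) with both drugs, and the combination call was lost without DMSO replicate 2 (0.51) or 3 (0.48) or combination replicate 1 (0.46).

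All 3 basement membrane collagens rose in every treated group. COL4A1 and COL4A2 encode the chains of the most widespread type IV collagen, and COL18A1 encodes a basement membrane collagen from which endostatin is released. COL4A1 stood in normalized CPM at 351, 355 and 378 in DMSO, 705, 688 and 706 with everolimus, 670.4, 656 and 655 with SGI-1027, and 585, 564 and 558 with the combination. COL4A2 stood, in the same unit, at 422, 410.4 and 431 in DMSO, 774, 738 and 769 with everolimus, 736, 746 and 772 with SGI-1027, and 747, 745 and 718 with the combination. Neither gene had a treated library within its DMSO range. Against DMSO, COL4A1 rose by 0.95 (SE 0.04) with everolimus, 0.87 (SE 0.04) with SGI-1027 and 0.66 (SE 0.04) with both drugs, and COL4A2 by 0.85 (SE 0.04), 0.84 (SE 0.04) and 0.81 (SE 0.04). The combination fell short of both single drugs for COL4A1, at -0.30 against everolimus (adjusted p = 2.34e-06) and -0.22 against SGI-1027 (adjusted p = 0.000255). For COL4A2 the same differences were -0.05 (95% CI -0.12 to 0.03) and -0.03 (95% CI -0.10 to 0.04). COL4A1 over COL4A2 in FPKM was lowest with the combination, at 0.355 ± 0.010 in DMSO, 0.380 ± 0.004 with everolimus, 0.364 ± 0.013 with SGI-1027 and 0.319 ± 0.006 with both drugs. COL18A1 rose by 0.32, 0.48 and 0.40, and 16.4% of its exon bases are shared with SLC19A1 on the opposite strand, from which its counts cannot be told apart if strand was ignored.

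The COL4A1 and COL4A2 windows are shown because the genes lie head to head and share most of the same DNA. In RefSeq the COL4A1 window lies on the minus strand at chr13:110307108-110307407 and the COL4A2 window on the plus strand at chr13:110307034-110307333 (both GRCh38.p14), with starts 127 bases apart and 226 bases in common. Capitals mark CCAAT and GGGCGG, or their reverse complements ATTGG and CCGCCC.
COL4A1: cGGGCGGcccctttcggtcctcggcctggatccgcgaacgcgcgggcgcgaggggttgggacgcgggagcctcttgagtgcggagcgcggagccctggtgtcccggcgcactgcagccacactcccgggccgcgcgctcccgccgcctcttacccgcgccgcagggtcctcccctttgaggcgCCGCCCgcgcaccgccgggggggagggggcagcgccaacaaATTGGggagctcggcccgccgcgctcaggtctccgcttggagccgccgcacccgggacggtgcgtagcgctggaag
COL4A2: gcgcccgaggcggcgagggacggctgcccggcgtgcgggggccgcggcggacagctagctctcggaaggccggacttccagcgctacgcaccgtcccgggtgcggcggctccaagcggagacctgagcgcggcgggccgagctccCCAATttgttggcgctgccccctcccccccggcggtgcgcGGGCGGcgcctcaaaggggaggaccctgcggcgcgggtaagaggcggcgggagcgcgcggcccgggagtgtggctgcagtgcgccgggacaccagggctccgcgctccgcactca
The CCAAT of the shared stretch lies on the COL4A2 strand, where it began at position -105 from the start, and it appears as ATTGG in the COL4A1 window, beginning at position -26. The shared GGGCGG began at position -65 for COL4A2 and appears as CCGCCC in the COL4A1 window, beginning at position -67. Neither window held TATAAA.

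The other collagens moved in both directions in every treated group, over the widest range with the combination. Type VI collagen forms beaded filaments at the cell surface. COL6A3 stood in normalized CPM at 1825, 1959 and 1979 in DMSO, 2729, 2646 and 2774 with everolimus, 2809.6, 2766 and 2835 with SGI-1027, and 3678, 3781 and 3887 with the combination. Its single-drug libraries overlapped each other, and every combination library lay above them. The rise against DMSO was 0.50 (SE 0.04) for everolimus, 0.55 (SE 0.04) for SGI-1027 and 0.98 (SE 0.04) for both drugs, which exceeded everolimus by 0.48 (SE 0.04) and SGI-1027 by 0.43 (SE 0.04). COL6A2 rose by 0.56, 0.61 and 0.80, and COL6A1 by 0.30 with SGI-1027 and 0.40 with both drugs, with 0.13 for everolimus (adjusted p = 0.0715). The FPKM of COL6A3 over that of COL6A1 averaged 3.484 ± 0.392 in DMSO and 5.184 ± 0.091 with the combination. Part of this shift was present under each single drug, at 4.482 ± 0.123 for everolimus and 4.117 ± 0.336 for SGI-1027. SGI-1027 replicate 3, at 3.729, lay within the DMSO range.

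COL7A1, the anchoring fibril collagen that fastens epithelium to the tissue below, rose by 0.66, 0.70 and 0.72. The transmembrane collagen COL13A1 stood in normalized CPM at 4.67, 4.95 and 4.29 in DMSO, 6.0, 6.13 and 7.16 with everolimus, 7.44, 7.75 and 7.21 with SGI-1027, and 10.6, 11.5 and 10.9 with the combination. Its combination libraries were the highest of all, at 1.24 (SE 0.10) against DMSO, 0.77 (SE 0.09) against everolimus and 0.56 (SE 0.09) against SGI-1027. COL8A1, a short-chain network collagen, went the other way. Its libraries stood in normalized CPM at 109.7, 106 and 111 in DMSO, 98.5, 91.1 and 97.7 with everolimus, 90.5, 92.4 and 100 with SGI-1027, and 61.9, 51.6 and 51.3 with the combination. No combination library reached the range of any other group. COL8A1 fell by 0.18 with everolimus (adjusted p = 0.0168), by 0.21 with SGI-1027 (adjusted p = 0.0075) and by 0.99 with both drugs (adjusted p = 1.74e-10). The everolimus call was lost with upper-quartile scaling and without DMSO replicate 3 (-0.17) or everolimus replicate 2 (-0.15). COL12A1, which decorates fibrils, rose by 0.31 (SE 0.04) with SGI-1027, with -0.01 for everolimus (95% CI -0.10 to 0.07) and -0.08 for the combination (95% CI -0.16 to 0.01).

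Laminins are trimers of an alpha, a beta and a gamma chain. LAMB3, the beta chain of the laminin of epithelial anchoring complexes, rose in every treated group. It stood in normalized CPM at 245, 255 and 255 in DMSO, 408, 416 and 419 with everolimus, 416, 421 and 399 with SGI-1027, and 697, 748 and 781 with the combination. The single-drug libraries overlapped each other, and all combination libraries lay above them. Its rise against DMSO was 0.72 (SE 0.04) for everolimus, 0.71 (SE 0.04) for SGI-1027 and 1.56 (SE 0.04) for both drugs (adjusted p = 1.54e-15), with a further 0.84 over everolimus and 0.85 over SGI-1027. LAMA3, its alpha chain, stood in normalized CPM at 190.0, 194 and 192 in DMSO, 265, 249 and 256 with everolimus, 279, 272 and 311 with SGI-1027, and 274, 261 and 269 with the combination. LAMA3 rose by 0.42, 0.58 and 0.48, and the combination did not pass the test against either single drug, at 0.06 (95% CI -0.03 to 0.16) and -0.10 (95% CI -0.20 to -0.01). LAMB3 over LAMA3 in FPKM was 3.310 ± 0.050 in DMSO, 4.072 ± 0.165 with everolimus, 3.630 ± 0.349 with SGI-1027 and 6.984 ± 0.502 with both drugs.

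LAMB3 and LAMA3 windows are shown as the chains of one trimer whose levels parted with the combination. They lie on the minus strand at chr1:209651325-209651624 and on the plus strand at chr18:23872770-23873069 (RefSeq, GRCh38.p14), and capitals mark only TGAGTCA, the AP-1 motif, or its reverse complement TGACTCA.
LAMB3: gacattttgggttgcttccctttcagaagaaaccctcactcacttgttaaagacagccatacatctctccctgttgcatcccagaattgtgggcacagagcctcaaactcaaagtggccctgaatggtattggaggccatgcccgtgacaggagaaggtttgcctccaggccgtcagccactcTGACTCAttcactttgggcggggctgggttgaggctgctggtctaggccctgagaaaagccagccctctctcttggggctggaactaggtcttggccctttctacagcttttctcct
LAMA3: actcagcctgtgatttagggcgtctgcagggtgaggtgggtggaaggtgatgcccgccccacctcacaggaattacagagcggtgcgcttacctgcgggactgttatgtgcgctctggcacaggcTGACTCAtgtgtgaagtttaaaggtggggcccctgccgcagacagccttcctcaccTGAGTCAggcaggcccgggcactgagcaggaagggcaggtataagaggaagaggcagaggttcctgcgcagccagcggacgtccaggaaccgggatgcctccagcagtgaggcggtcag
For both genes only a window that held the motif was printed, so its presence there was a condition for showing it and not a result. The printed LAMB3 window held 1 match, at position -67 from the start, and that of LAMA3 held 2, at positions -125 and -69. The motif was in 4.95% of all windows and in 9.3% of matrix windows, those of LAMA3, LAMB3, MFAP2 and POSTN.

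Of the chains of other laminins, LAMB1 stood in normalized CPM at 336, 364 and 353 in DMSO, 491, 479 and 479 with everolimus, 476, 472 and 457 with SGI-1027, and 577, 584 and 597 with the combination. It rose by 0.46, 0.42 and 0.74, and the combination libraries exceeded those of both single drugs. LAMC1, the gamma chain that most laminins share, stood in normalized CPM at 909, 1006 and 979 in DMSO, 1073, 1041 and 1055 with everolimus, 1061, 1076 and 1042 with SGI-1027, and 979, 983 and 991 with the combination. LAMC1 rose by 0.13 with everolimus and 0.14 with SGI-1027, and the combination overlapped DMSO at 0.03 (95% CI -0.05 to 0.11). LAMB1 over LAMC1 in FPKM was 0.444 ± 0.006 in DMSO and 0.727 ± 0.008 with the combination. Each single drug had already raised this ratio, to 0.558 ± 0.004 for everolimus and 0.539 ± 0.007 for SGI-1027. LAMB2 rose by 0.62, 0.56 and 0.67.

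LAMA5, the alpha chain of laminin-511, stood in normalized CPM at 276, 270.0 and 250 in DMSO, 270.1, 262 and 271 with everolimus, 332, 333 and 385 with SGI-1027, and 274, 277 and 300.4 with the combination. It rose by 0.40 (SE 0.05) with SGI-1027, with 0.01 for everolimus (95% CI -0.10 to 0.13) and 0.10 for the combination (95% CI -0.02 to 0.21). LAMA4, an alpha chain typical of vessels and mesenchyme, was near the lower limit, in normalized CPM, at 1.45, 2.16 and 1.47 in DMSO, 1.68, 1.07 and 1.15 with everolimus, 1.36, 1.30 and 1.36 with SGI-1027, and 0.808, 0.827 and 0.894 with the combination. The combination libraries lay below all DMSO libraries, and LAMA4 fell by 1.01 (adjusted p = 0.00118), with -0.39 for everolimus (adjusted p = 0.153) and -0.34 for SGI-1027 (adjusted p = 0.199).

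The linkers of the basement membrane moved by smaller amounts. HSPG2 (perlecan) stood in normalized CPM at 1197, 1147 and 1109 in DMSO, 1349, 1358 and 1388 with everolimus, 1278, 1299 and 1492 with SGI-1027, and 1098, 1075 and 1227 with the combination. It rose by 0.25 (SE 0.06) with everolimus and 0.24 (SE 0.06) with SGI-1027, while the combination overlapped DMSO at -0.02 (95% CI -0.14 to 0.09). In its exons 11.7% of bases are shared with LDLRAD2 on the opposite strand. AGRN (agrin) stood in normalized CPM at 1391, 1349.8 and 1307 in DMSO, 1883, 1810.4 and 1876 with everolimus, 1955, 1999 and 2083 with SGI-1027, and 1969.6, 1957 and 2093 with the combination. All treated libraries exceeded DMSO, and AGRN rose by 0.46, 0.58 and 0.57.

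Matricellular genes took different courses. TGFBI, named for its induction by TGF-beta, stood in normalized CPM at 4125, 4087 and 4089 in DMSO, 6471, 6232 and 6272 with everolimus, 5794, 5709 and 6266 with SGI-1027, and 5696, 5601 and 5629 with the combination. It rose by 0.63 (SE 0.03), 0.53 (SE 0.03) and 0.46 (SE 0.03), with everolimus highest on average and no overlap with DMSO. THBS1, an activator of latent TGF-beta, stood in normalized CPM at 2219, 2406 and 2337 in DMSO, 3614, 3660.2 and 3690.2 with everolimus, 4085, 4224 and 3901 with SGI-1027, and 2736, 2576 and 2637 with the combination. The single-drug groups were the highest and the combination lay between them and DMSO. THBS1 rose by 0.66 (SE 0.04) and 0.81 (SE 0.04) with the single drugs and by 0.19 (SE 0.04) with the combination (adjusted p = 0.000203), which fell by 0.46 against everolimus (adjusted p = 1.47e-08) and by 0.62 against SGI-1027 (adjusted p = 3.3e-09). THBS3, a thrombospondin of the pentameric kind, stood in normalized CPM at 6.63, 5.76 and 4.50 in DMSO, 17.3, 17.3 and 18.3 with everolimus, 19.6, 18.6 and 20.4 with SGI-1027, and 21.2, 18.9 and 20.8 with the combination. Every treated library was above the DMSO range, with rises of 1.65 (SE 0.10), 1.80 (SE 0.10) and 1.85 (SE 0.10). THBS3 shares 22.2% of its exon bases with an antisense gene.

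SPARC stood in normalized CPM at 1056, 985 and 997 in DMSO, 1118, 1092 and 1097 with everolimus, 1198, 1197 and 1302 with SGI-1027, and 1014, 1006 and 970.2 with the combination. It rose by 0.12 (SE 0.04) with everolimus, a call lost without DMSO replicate 2 (0.10), and by 0.28 (SE 0.04) with SGI-1027, and its combination libraries overlapped DMSO at -0.02 (95% CI -0.11 to 0.06). TNC (tenascin-C) was close to level, in normalized CPM, at 1275, 1363 and 1324 in DMSO, 1225, 1224 and 1276 with everolimus, 1276, 1277 and 1314 with SGI-1027, and 1195, 1189.5 and 1228 with the combination. It fell by 0.09 with everolimus and by 0.13 with the combination, both lost with upper-quartile scaling, and the everolimus libraries overlapped DMSO. Its everolimus call was also lost without DMSO replicate 2 (-0.07) or 3 (-0.09) or everolimus replicate 1 or 2 (-0.08 in both). POSTN (periostin), at under 2.5 normalized CPM in all libraries, passed the test in no contrast.

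**Figure D4:**
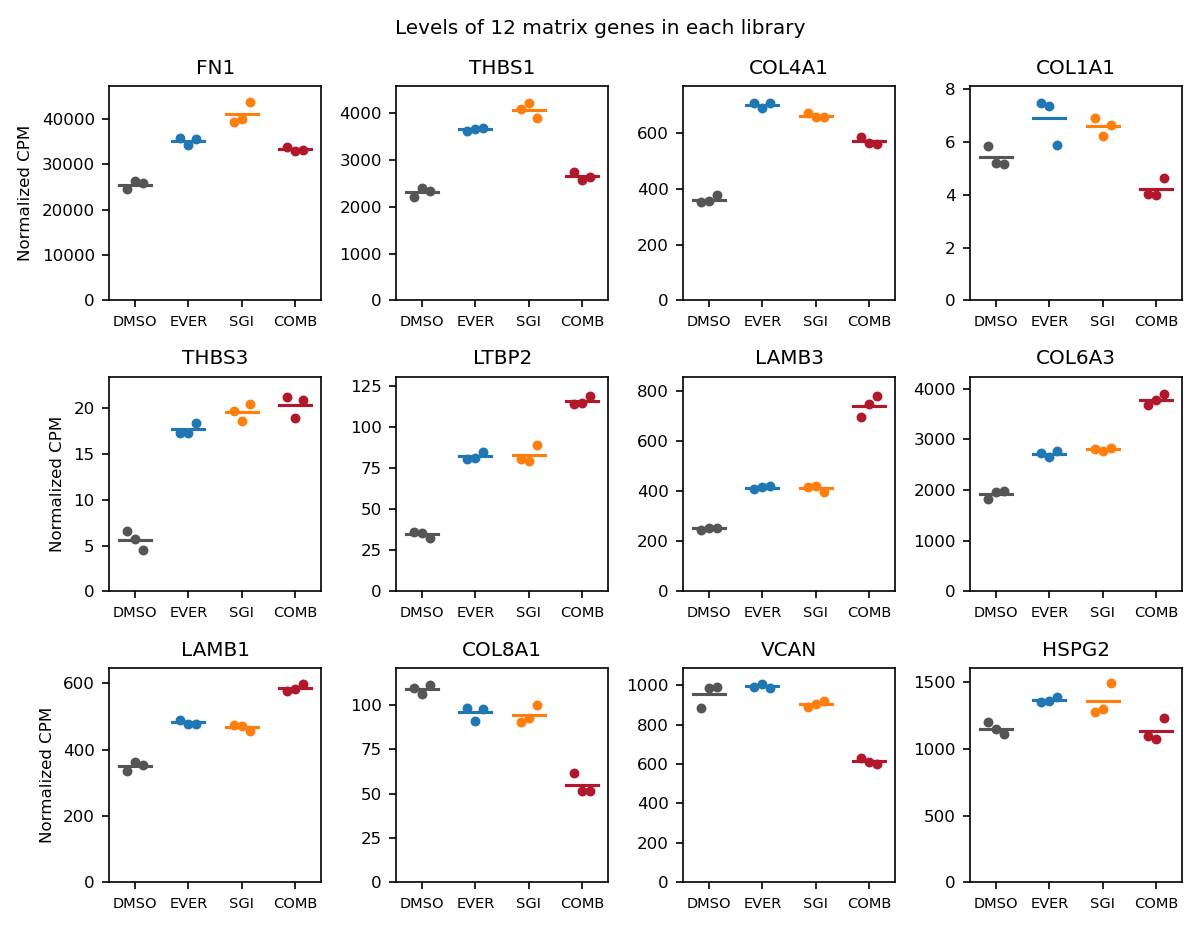
Normalized CPM of 12 genes in each library (points) with group means (lines), with EVER for everolimus, SGI for SGI-1027 and COMB for both drugs. In FN1, THBS1 and COL4A1 the combination lies between DMSO and the single drugs, in LTBP2, LAMB3, COL6A3 and LAMB1 it lies above them, and in COL8A1 and VCAN it lies below every other group.

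Microfibril genes held several of the largest rises. FBN1 (fibrillin-1) stood in normalized CPM at 101, 107 and 105 in DMSO, 208, 199 and 201 with everolimus, 245, 258 and 257 with SGI-1027, and 274, 271 and 283 with the combination. It rose by 0.96 (SE 0.04), 1.28 (SE 0.04) and 1.40 (SE 0.04), and the 3 treated groups did not overlap. LTBP2, a fibrillin-binding protein that does not bind latent TGF-beta, stood in normalized CPM at 36.2, 35.8 and 32.8 in DMSO, 80.8, 81.6 and 84.9 with everolimus, 80.9, 79.2 and 89.3 with SGI-1027, and 114, 115 and 119 with the combination. The single drugs overlapped each other and the combination exceeded both, with rises of 1.24 (SE 0.05), 1.25 (SE 0.05) and 1.73 (SE 0.05). LTBP3, which carries latent TGF-beta, stood in normalized CPM at 176, 152 and 149 in DMSO, 229, 216 and 232 with everolimus, 238, 237 and 300.4 with SGI-1027, and 298, 289 and 315 with the combination. It rose by 0.51 (SE 0.08), 0.70 (SE 0.08) and 0.92 (SE 0.08), and SGI-1027 replicate 3 overlapped the combination.

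LTBP1, the main carrier of latent TGF-beta in many tissues, was scarce here, in normalized CPM, at 1.23, 1.89 and 1.86 in DMSO, 1.49, 1.44 and 1.33 with everolimus, 2.55, 1.90 and 1.77 with SGI-1027, and 2.53, 2.56 and 3.05 with the combination. It rose with the combination by 0.70 (SE 0.20) against DMSO and 0.93 (SE 0.20) against everolimus, with -0.23 for everolimus (adjusted p = 0.377) and 0.31 for SGI-1027 (adjusted p = 0.193) against DMSO. The combination libraries overlapped those of SGI-1027, and the difference was 0.39 (SE 0.20, adjusted p = 0.193). MFAP2, a microfibril component, had 9, 5 and 3 counts in DMSO, 17, 20 and 11 with everolimus, 25, 14 and 35 with SGI-1027, and 13, 5 and 10 with the combination. It rose by 1.48 (SE 0.51) with everolimus and 2.10 (SE 0.48) with SGI-1027, and the combination overlapped DMSO at 0.71 (95% CI -0.47 to 1.89). Like COL5A1, MFAP2 was so low in DMSO that it passed the filter through treated libraries, so its differences from DMSO and its interaction are no independent evidence. The everolimus call was lost without DMSO replicate 2 (1.36) or 3 (1.19) or everolimus replicate 1 (1.40) or 2 (1.33). EFEMP1 (fibulin-3) rose by 0.37, 0.60 and 0.38, while FBLN1, with 13 to 37 counts, passed the test in no contrast.

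Of the interstitial proteoglycans, VCAN (versican), a large chondroitin sulphate proteoglycan, stood in normalized CPM at 886, 984 and 989 in DMSO, 992, 1005 and 984 with everolimus, 891, 906 and 919 with SGI-1027, and 631, 609.9 and 601 with the combination. The combination libraries lay below all others. VCAN fell by 0.63 with the combination (SE 0.04, adjusted p = 1.49e-10), with 0.06 for everolimus (adjusted p = 0.212) and -0.07 for SGI-1027 (adjusted p = 0.116). BGN (biglycan) stood in normalized CPM at 4.16, 4.18 and 4.53 in DMSO, 6.43, 6.45 and 5.64 with everolimus, 7.61, 7.48 and 10.3 with SGI-1027, and 6.10, 5.72 and 5.05 with the combination. It rose by 0.53 (SE 0.13), 0.98 (SE 0.13) and 0.39 (SE 0.13), with SGI-1027 replicate 3 the highest library, and the combination call was lost without combination replicate 1 (0.33). LUM (lumican), with 7 to 36 counts, rose by 0.96 (SE 0.39) with SGI-1027, a call lost without DMSO replicate 1 (0.97) or 2 (0.77) or SGI-1027 replicate 1 (0.90) or 2 (0.76).

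Set against the single drugs, the combination moved genes both ways. It raised 11 of 39 and lowered 9 against everolimus, beside 20.1 and 19.2% of all tested genes, with a median of 0.05 for the matrix genes and 0.00 for all. Against SGI-1027 it raised 9 and lowered 14, beside 9.40 and 10.2%, with medians of -0.10 and 0.00. By the study's cut-off 0 rose and 0 fell against everolimus (2.44 and 1.46% of all genes), and 0 rose and 2 fell against SGI-1027 (0.428 and 1.21%). By absolute size the median change of the matrix genes was 0.27 against everolimus and 0.30 against SGI-1027, and 0.16 and 0.11 over all genes. SGI-1027 compared with everolimus raised 13 and lowered 1, VCAN, beside 13.0 and 9.51%, with medians of 0.16 and 0.00. Without SGI-1027 replicate 3 or everolimus replicate 2 the 13 became 8, and without DMSO replicate 1 they became 15. The calls lost without SGI-1027 replicate 3 were COL5A1 (1.10), COL6A1 (0.09), LAMA3 (0.10), AGRN (0.09) and BGN (0.29). The study's cut-off called 1 higher here and 0 lower (1.53 and 0.265%).

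The interaction contrast asked whether the combination differed from the sum of the single-drug log2 changes. Its value was below 0 at an adjusted p under 0.05 in 29 of 39 genes and above 0 in 0, beside 22.1 and 23.6% of all tested genes. The study's cut-off called 7 below 0 and 0 above (4.63 and 1.14%). At an unadjusted p under 0.05, only LAMB3 and LTBP1 lay above 0 by edgeR. The count above 0 was 0 by edgeR and by DESeq2, 1 with unscaled library totals or without a filter on low counts, and 2 without DMSO replicate 1. The median interaction was -0.51 over the matrix genes and -0.01 over all. FN1 rose by less than the sum by 0.76 (SE 0.05, adjusted p = 3.94e-09). THBS1 had an interaction of -1.27 (SE 0.05, adjusted p = 9.3e-12), COL4A1 of -1.17 (SE 0.05, adjusted p = 1.38e-11) and THBS3 of -1.59 (SE 0.13, adjusted p = 4.28e-08). Not all 29 were smaller rises. VCAN changed by -0.63 with the combination where the sum was -0.01, and COL8A1 by -0.99 where it was -0.39. COL1A1 had a sum of 0.64 and a change of -0.36 with the combination. LAMB3, COL6A3 and COL13A1 did not pass the test, with interactions of 0.13 (95% CI 0.01 to 0.25), -0.07 (95% CI -0.17 to 0.04) and 0.09 (95% CI -0.20 to 0.38). The calls of COL5A1, LAMB1, LTBP3 and LUM were lost when 1 of several libraries was left out, among them DMSO replicate 2 for COL5A1 (-1.60), LTBP3 (-0.26) and LUM (-1.40) and DMSO replicate 1 for LAMB1 (-0.10). Since the interaction subtracts the everolimus group, the unsettled dose of everolimus alone touches every one of these values, and its part was not tested.

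**Figure D5:**
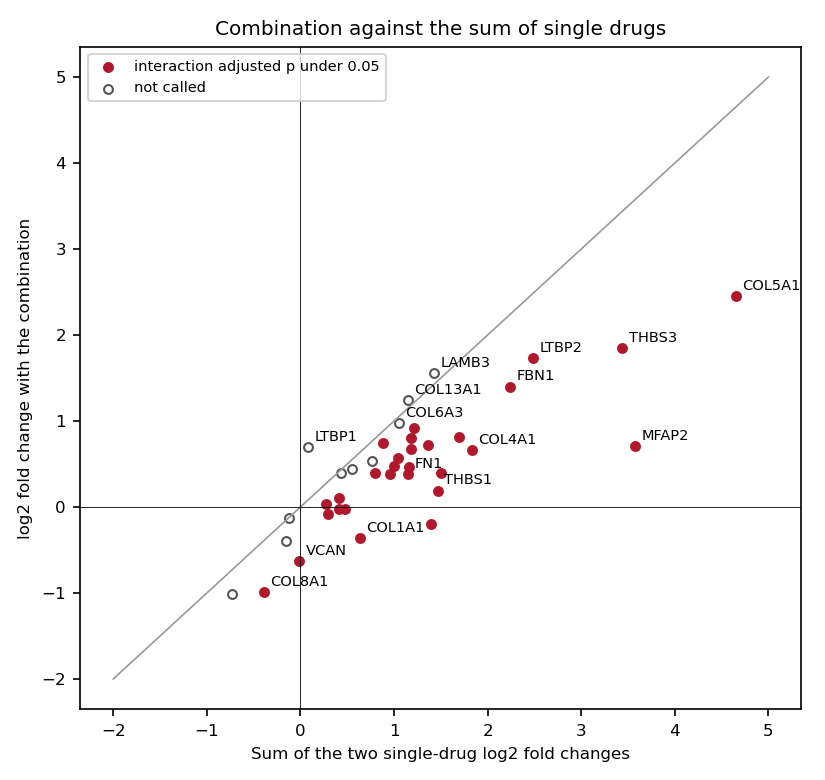
Log2 fold change with the combination against the sum of the everolimus and SGI-1027 log2 fold changes, each against DMSO, for the 39 tested genes; red points passed an adjusted p of 0.05 for the interaction and the grey line marks equality. All 29 red points lie below the line, and LAMB3, COL13A1 and COL6A3 lie on or near it.

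Genes that make, cross-link and bind the matrix were counted in 3 further lists. Of 29 tested genes for collagen synthesis and cross-linking, 16 rose and 6 fell with everolimus, 17 rose and 6 fell with SGI-1027, and 16 rose and 8 fell with the combination, where the median was 0.21. Over all tested genes 27.2% were called higher and 29.2% lower with everolimus, 32.0 and 30.6% with SGI-1027, and 32.8 and 33.4% with the combination. In the interaction 2 of the 29 lay above 0 and 15 below, beside 23.6 and 22.1% of all genes. Of these, the cross-linking oxidase LOX rose by 1.31 (SE 0.12) with the combination and LOXL2 by 1.04 (SE 0.05), and ADAMTS14, a procollagen N-proteinase, by 1.60 (SE 0.26) at a low level of 1.81 ± 0.491 normalized CPM. The collagen chaperone SERPINH1 (HSP47) fell by 0.83 (SE 0.03), from 744 ± 8.44 to 419 ± 12.4 normalized CPM, the prolyl 3-hydroxylase P3H2 by 1.0 (SE 0.05) and ADAMTS3 by 0.94 (SE 0.07). All 3 also fell with each single drug.

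Of 25 tested integrins and other matrix receptors, 10 rose and 6 fell with everolimus, 10 rose and 4 fell with SGI-1027, and 11 rose and 7 fell with the combination, with a median of 0.22, beside the same shares of all genes (32.8 and 33.4% with the combination). In the interaction 6 lay above 0 and 13 below, beside 23.6 and 22.1% of all genes. ITGA2, part of a collagen and laminin receptor, rose by 1.41 (SE 0.08) with the combination, from 13.1 ± 0.643 to 35.1 ± 4.01 normalized CPM. ITGB5 rose by 0.73 (SE 0.04) and ITGA3, part of a laminin receptor, by 0.70 (SE 0.03). ITGB6 fell by 0.77 (SE 0.06), and the syndecans SDC1 and SDC2 fell by 0.65 (SE 0.04) and 0.55 (SE 0.05). Of 26 tested other matrix genes, 13 rose and 2 fell with everolimus, 15 rose and 1 fell with SGI-1027, and 12 rose and 4 fell with the combination, with a median of 0.33, again beside 32.8 and 33.4% of all genes with the combination. For the interaction of these genes, 0 lay above 0 and 12 below, beside 23.6 and 22.1% of all genes. COL4A4, a type IV chain of the glomerulus, rose by 2.79 (SE 0.30), from a low level of 0.321 ± 0.140 in DMSO to 2.22 ± 0.269 normalized CPM. Like COL5A1 and MFAP2, COL4A4 was so low in DMSO that it passed the filter through treated libraries. Its differences from DMSO, and its place in the counts of genes that rose, are therefore no independent evidence. LAMA1, also low, rose by 2.11 (SE 0.19), from 1.33 ± 0.340 to 5.80 ± 0.724 normalized CPM. COL16A1 rose by 1.71 (SE 0.08), while COL14A1 fell by 1.20 (SE 0.11), NID2 by 0.40 (SE 0.06) and COL4A5 by 0.39 (SE 0.11).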

How the data were processed

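RNA-seq of 12 libraries of 786-O cells was analysed from a gene count table and a table of FPKM values. The counts deposited by the authors were whole reads per gene and were not normalized. The FPKM values deposited by the authors equalled the count divided by a fixed length per gene and by the table total. The submitters' processing notes name the mouse builds GRCm38 and mm10 although the cells are human, and the aligner, the counter and its use of strand are not given in the sources used here, so no coordinates of the files' build are printed. The labels and the paper name different extraction and library kits.

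Genes were filtered with filterByExpr, scaled by TMM factors and fitted over all 12 libraries with the quasi-likelihood test of edgeR 4.0.16 in R 4.3.3, without a replicate block. A gene was called at a Benjamini-Hochberg adjusted p under 0.05 over 12841 genes, and 4244 of 17085 genes were not tested. The interaction was the combination minus everolimus, less SGI-1027 minus DMSO. All tests were two-sided, and confidence intervals were 95%. Alternatives used DESeq2 1.42.0, limma 3.58.1 on log2(FPKM + 1) and log2(FPKM + 0.1), other scalings and filters, a replicate block, and each library left out. The code was tested on simulated data.

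The genes, the lists and the tests were chosen with earlier results of these data known. Library values were printed for the 5 genes highest in mean FPKM and, in each contrast, the 3 highest and the 3 lowest called log2 fold changes; those of FBN1, COL4A1 and COL4A2 were added after their values were seen. From the further lists, at most 3 genes each way in the combination contrast with a mean of at least 50 counts were named. Exon overlaps were read from a human annotation and promoter windows from RefSeq.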

Additional observations from a re-analysis of the deposited data

Results flagged for a closer look

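The effect of adding SGI-1027 differed between cells with and without everolimus in 29 of 39 genes, by the interaction term of the edgeR fit at an adjusted p under 0.05, all below 0, where 22.1% of all tested genes were called below 0 and 23.6% above. Each value below is the log2 interaction. For fibronectin it was FN1 (-0.76). Among fibrillar collagens, it was found for COL1A1 (-1.00) and COL5A1 (-2.20). Among basement membrane collagens, it was found for COL4A1 (-1.17), COL4A2 (-0.88) and COL18A1 (-0.40). Among other collagens, it was found for COL6A2 (-0.38), COL7A1 (-0.64), COL8A1 (-0.60) and COL12A1 (-0.37). Among laminins, it was found for LAMA3 (-0.52), LAMA5 (-0.32), LAMB1 (-0.14), LAMB2 (-0.51) and LAMC1 (-0.24). Among basement membrane linkers and proteoglycans, it was found for HSPG2 (-0.51) and AGRN (-0.46). Among matricellular glycoproteins, it was found for THBS1 (-1.27), THBS3 (-1.59), SPARC (-0.43) and TGFBI (-0.70). Among microfibril and fibulin glycoproteins, it was found for FBN1 (-0.83), LTBP2 (-0.76), LTBP3 (-0.29), MFAP2 (-2.87) and EFEMP1 (-0.58). Among interstitial proteoglycans, it was found for VCAN (-0.62), BGN (-1.11) and LUM (-1.59). The values of COL5A1, LUM and MFAP2 rest on fewer than 40 counts in every library, and that of COL5A1 was -3.70 without DMSO replicate 1. COL5A1 and MFAP2 were so low in DMSO that they passed the filter through libraries in which they were higher, which bears directly on their interaction. The calls of COL5A1, LAMB1, LTBP3 and LUM were lost in several fits that left out 1 library. Whether the everolimus dose was the same alone and in the combination is not settled by the labels, and its part was not tested.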

How the results depend on the processing

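No call changed direction under any alternative, and calls lost were 3 of 176 with DESeq2, 6 with upper-quartile scaling, 1 with unscaled totals, 1 with FN1 left out of totals, 4 without a filter, 8 or 7 with limma on FPKM + 1 or + 0.1, 1 of 166 with at least 10 counts in every library and 5 of 147 with only the groups contrasted. Calls gained were 5 of 97 with DESeq2, 8 with upper-quartile scaling, 2 with unscaled totals, 1 with FN1 left out, 4 without a filter, 0 with limma, 2 of 86 with at least 10 counts and 5 of 85 with only the groups contrasted. Counts of genes called higher and lower by the study's cut-off were 4 and 0 with everolimus, 5 and 0 with SGI-1027, 6 and 1 with the combination, 0 and 0 against everolimus, 0 and 2 against SGI-1027, 1 and 0 for SGI-1027 against everolimus, and 7 lower in the interaction. The 2 genes lower with everolimus became 0 with upper-quartile scaling and 1 with at least 10 counts in every library or with only the groups contrasted. The 1 gene lower for SGI-1027 against everolimus became 3 with DESeq2 or upper-quartile scaling and 2 with unscaled totals, with FN1 left out or without a filter. The interaction count above 0 became 1 with unscaled totals or without a filter. As a share of summed FPKM, FN1 took 0.806, 1.12, 1.33 and 1.08% in DMSO, everolimus, SGI-1027 and combination. The cause of these shifts was not tested.

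Leaving out each library in turn, 27 of 176 calls were lost in at least one fit. Genes higher and lower ranged from 23 to 28 and 0 to 2 with everolimus, 30 to 32 and 1 to 2 with SGI-1027, 23 to 26 and 4 to 5 with the combination, 10 to 12 and 8 to 10 against everolimus, 6 to 9 and 12 to 15 against SGI-1027, 8 to 15 and 0 to 2 for SGI-1027 against everolimus, and 0 to 2 and 25 to 28 in the interaction. The lower count with everolimus was 0 without DMSO replicate 3 or everolimus replicate 2, and the higher count for SGI-1027 against everolimus was 8 without SGI-1027 replicate 3 or everolimus replicate 2. FN1 shares ranged from 2.51 to 2.59, 3.5 to 3.56, 3.96 to 4.16 and 3.34 to 3.38% in the same order of groups.

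Replicate numbers did not pair the libraries: over 18 pairs with the same number, deviations from group means correlated at -0.18 to 0.04, and 1 of 12 libraries correlated best with its own number. With a replicate block, 5 of 176 calls were lost (LUM for SGI-1027 against DMSO at 0.94, LAMC1 for the combination against SGI-1027 at -0.11, COL5A1 for SGI-1027 against everolimus at 1.44, and the interactions of COL5A1 at -2.15 and LAMB1 at -0.14) and 0 of 97 gained, and the count for SGI-1027 against everolimus was 12 higher.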
